A study of Mus musculus with 5 samples.

Results

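The 9 genes Cd79a, Cd79b, Blnk, Bank1, Ms4a1, Cd22, Cd72, Cr2 and Fcer2a, which encode the signalling chains, adaptors and coreceptors of the mature B cell antigen receptor, were followed in memory plasma cells (PCs) of mouse bone marrow (BM). They were chosen by name, and every probe set that the platform annotation assigns to 1 of them alone was kept, which gave 12 probe sets of the 45037 that are not controls, for 9 of 18193 named genes. Expression was measured on Affymetrix MG 430 2 arrays, which carry sets of short probes, and values are given as log2 of the deposited intensity. PCs cultured for 3 days with ST2 cells, a mouse stromal line, and the cytokine APRIL at physiological oxygen were measured on 3 arrays, 1 from experiment 1 and 2 from experiment 2. PCs processed directly after isolation, called ex vivo, were measured on 2 arrays, 1 from each experiment. Both groups came from C57BL/6J mice primed with NP-CCG in incomplete Freund's adjuvant into the peritoneum and boosted in cycles of 21 days, and their cells were taken over 30 days after boosting ended. The sources used here give neither ages nor the number of mice behind an array. All PCs were isolated magnetically by removing B220+ and CD49b+ cells and enriching CD138high cells, and only the cultured PCs were sorted again by flow cytometry before RNA was made, so that culture and the second sort cannot be told apart.

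The antigen receptor of a B cell is a membrane immunoglobulin held together with the chains CD79A and CD79B, whose tyrosine motifs pass the signal to the kinase SYK. The adaptor BLNK then brings BTK and PLCG2 together, while coreceptors set the threshold of the response: CR2 lowers it, and CD22 and CD72 raise it by recruiting the phosphatase SHP-1. When a B cell becomes a PC, it turns from sensing antigen to secreting antibody, and much of this machinery is known to be turned down. The deposited values show how much signal of each gene was left in BM PCs, and whether it moved over 3 days in culture or between the experiments.

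Promoter sequences were looked up in the RefSeq annotation of the GRCm38.p6 build to show the DNA just upstream of the members, and 9 promoters of 7 members were found. Both strands were searched for 2 motifs that did not overlap in these promoters, the octamer ATTTGCAT that POU factors such as OCT2 bind (ATGCAAAT on the other strand) and the ETS core AGGAAGT, which read from the other strand is ACTTCCT. A match was found in 3 of these promoters, printed here as the 250 bases before the annotated start, 5′ to 3′ on the strand of the gene, with the matches in capitals. They belong to the signalling chain Cd79a, to the adaptor Blnk, called lower in experiment 2 in the main model, and to Cd72, the only member called in any comparison of cultured with ex vivo PCs.
Cd79a, chr7:24897247-24897496, + strand: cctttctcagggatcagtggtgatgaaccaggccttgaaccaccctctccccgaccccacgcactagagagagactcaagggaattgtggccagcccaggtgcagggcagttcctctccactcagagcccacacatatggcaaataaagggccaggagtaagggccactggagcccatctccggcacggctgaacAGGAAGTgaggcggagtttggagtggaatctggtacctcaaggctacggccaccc
Blnk, chr19:40994222-40994471, - strand: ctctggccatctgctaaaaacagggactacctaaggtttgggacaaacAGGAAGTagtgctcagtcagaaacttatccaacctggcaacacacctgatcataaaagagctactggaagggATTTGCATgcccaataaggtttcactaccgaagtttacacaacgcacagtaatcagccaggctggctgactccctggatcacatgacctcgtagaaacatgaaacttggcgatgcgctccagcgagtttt
Cd72, chr4:43454627-43454876, - strand: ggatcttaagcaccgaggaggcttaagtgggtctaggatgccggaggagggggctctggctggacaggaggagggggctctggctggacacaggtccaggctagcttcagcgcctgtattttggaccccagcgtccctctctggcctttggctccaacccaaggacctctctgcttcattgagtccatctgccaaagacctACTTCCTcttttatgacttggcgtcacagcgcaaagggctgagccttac
The ETS core begins 55 bases before the start in Cd79a, 202 in Blnk and 49 in Cd72, and the octamer of Blnk begins 130 bases before the start. Of 32851 promoters of the same length in the table, 526 (1.6%) held the octamer and 2525 (7.69%) held the ETS core. A match of letters describes the sequence and is not a measured binding site.

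Before any change is read, the level of each gene was set against a background. No detection call was used here, so 52 probe sets of 31 genes restricted to other tissues served for comparison. Their median was 5.09 to 5.27 per array, their 95th percentile 6.95 to 7.25 and their highest value 7.84 to 8.85. The members fell into 2 sets against this background. Cd79a, Cd79b, Blnk, Ms4a1 and Bank1 lay above the 95th percentile, and above the highest value, in all 5 arrays. Cd22, Cd72, Cr2 and Fcer2a did not. The share of all probe sets above these 2 levels was not counted. Counts of genes above the background, here and for the lists below, are thus not set against genes at large. All 9 members reached an intensity of 50 (5.64 on the log2 scale) in all 5 arrays with at least 1 probe set, but 60.6% of all 45037 probe sets did so too, and 38.5% to 42.3% of the background probe sets reached it in a given array. Each of the 12 member probe sets was tested, because each reached 50 in at least 2 arrays.

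**Figure D1:**
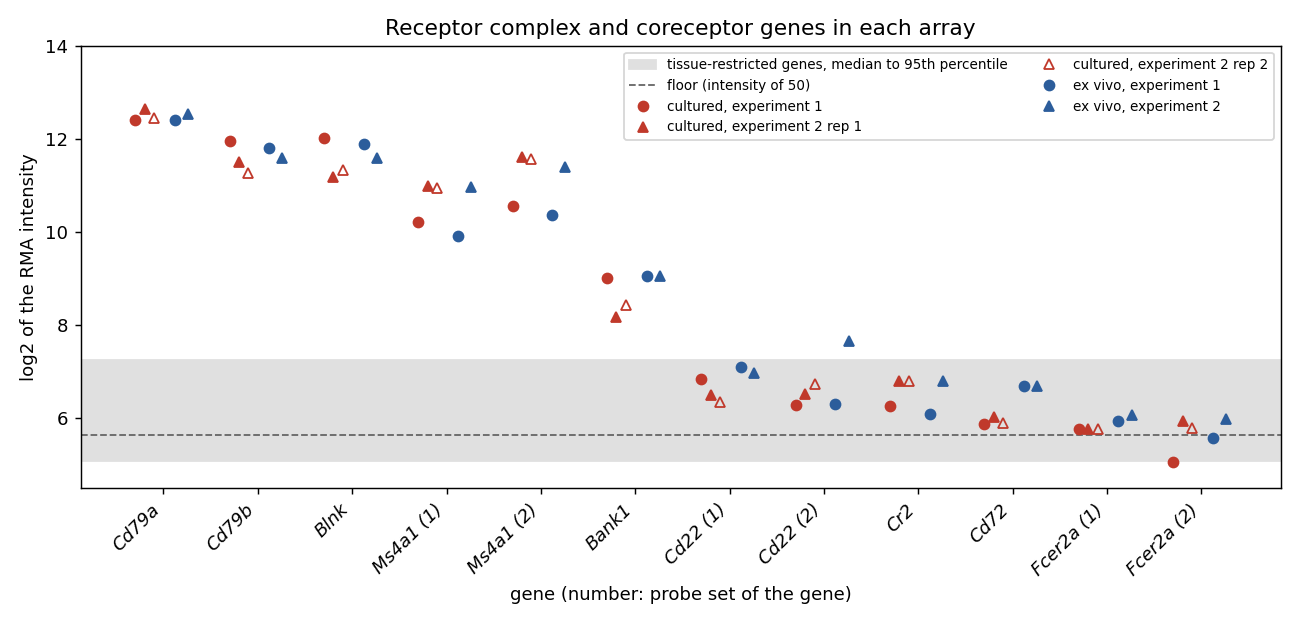
Log2 intensity of the 12 member probe sets in the 3 cultured and the 2 ex vivo arrays (1 point per array, symbols by experiment), with the background of tissue-restricted genes. Cd79a, Cd79b, Blnk, Ms4a1 and Bank1 lie above that background in every array, whereas Cd22, Cd72, Cr2 and Fcer2a lie within it in most or all arrays; heights of different probe sets are not comparable with each other.

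Cd79a, one of the pair of signalling chains, was bright and even. Its probe set 1418830_at read 12.41, 12.64 and 12.46 in cultured PCs, against 12.41 and 12.54 in ex vivo PCs, all on the log2 scale. The groups overlapped, and the 5 arrays spanned 0.23. Cultured PCs averaged 12.51 ± 0.12 (SD, n = 3) and ex vivo PCs 12.48 ± 0.09 (SD, n = 2). The log2 change in culture was 0.03 (SE 0.14, limma, adjusted p = 0.976), and in a model with the experiment as a block its 95% interval ran from -0.28 to 0.29.

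Cd79b, the partner chain, was read by 1417640_at at 11.96, 11.51 and 11.28 in cultured PCs, against 11.80 and 11.59 in ex vivo PCs. The groups overlapped, since the cultured array of experiment 1 was the highest of all and those of experiment 2 were the lowest. The log2 change in culture was -0.11 (SE 0.24, limma, adjusted p = 0.949), and with the block the interval was -0.39 to 0.31. Both signalling chains of the receptor were therefore bright in all 5 arrays, with no difference between cultured and ex vivo PCs that passed the test. Because these are bulk samples, fewer cells that carry a transcript and less of it per cell cannot be told apart, here and in all results that follow.

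Blnk, the adaptor that SYK phosphorylates, read 12.03, 11.19 and 11.34 in cultured PCs (1451780_at), against 11.89 and 11.59 in ex vivo PCs. The cultured arrays of experiment 2 were the lowest and the one of experiment 1 the highest, so that the groups overlapped. The log2 change in culture was -0.22 (SE 0.29, limma, adjusted p = 0.927), with an interval of -0.49 to 0.24 under the block.

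Bank1, a scaffold that the kinase LYN phosphorylates and that takes part in calcium signalling, was above the background in all arrays, but in 1 cultured array of experiment 2 it stood at 8.18 where the highest background probe set stood at 8.03. Its probe set 1456328_at read 9.01, 8.18 and 8.43 in cultured PCs, against 9.05 and 9.06 in ex vivo PCs. All cultured values were below both ex vivo values, but the array of experiment 1 only just. The cultured minus ex vivo difference was -0.04 in experiment 1 and -0.88 and -0.63 in experiment 2. The log2 change over all arrays was -0.51 (SE 0.27, limma, adjusted p = 0.833), and with the block it was -0.45 (95% interval -0.93 to 0.03, adjusted p = 0.296). The interaction of culture and experiment, -0.71 on the log2 scale, was fitted with 1 residual degree of freedom and did not pass either (adjusted p = 0.654).

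Ms4a1 encodes CD20, a membrane protein of B cells that is widely used to mark them, and both of its probe sets were above the background in all arrays. 1423226_at read 10.22, 10.98 and 10.95 in cultured PCs, against 9.92 and 10.96 in ex vivo PCs. 1450912_at read 10.57, 11.62 and 11.58 in cultured PCs, against 10.36 and 11.40 in ex vivo PCs. In both probe sets the arrays of experiment 2 were the high ones and those of experiment 1 the low ones, whatever the group. The log2 change in culture was 0.28 (SE 0.40, limma, adjusted p = 0.93) and 0.38 (SE 0.46, adjusted p = 0.923). With the block the intervals were -0.17 to 0.43 and -0.05 to 0.46. The second probe set was the only one of the 12 that was higher in culture in all 3 pairs of a cultured array with the ex vivo array of its experiment, a pattern that 23.1% of all tested probe sets showed.

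Cd72 encodes a lectin-like inhibitory coreceptor that carries a motif for SHP-1 and binds the semaphorin CD100. It read 5.88, 6.02 and 5.90 in cultured PCs (1426112_a_at), against 6.70 and 6.70 in ex vivo PCs. The groups did not overlap, and the values within each lay close together. All 5 values were nevertheless below the 95th percentile of the background genes. The difference was -0.82 in experiment 1 and -0.68 and -0.80 in experiment 2. Without the block the log2 change was -0.77 (SE 0.13, limma, unadjusted p = 0.00159, adjusted p = 0.253). When the experiment was added to the model it was -0.77 (SE 0.11, 95% interval -1.05 to -0.50, adjusted p = 0.0395). Since no array exceeded the background, this is a difference in the signal of the probe set, which need not be Cd72 transcript. The call was lost when the arrays of experiment 2 were averaged (adjusted p = 0.0983) and with no filter on dim probe sets (adjusted p = 0.0641). It was also lost without any 1 of the cultured arrays (adjusted p = 0.0702 to 0.315). Without the cultured array of experiment 1, no probe set of the whole table was called, so that loss is not particular to Cd72. Leaving out an ex vivo array left 1 in that group, so only the log2 change is given, at -0.74 and -0.82. The log2 change stayed between -0.82 and -0.74 in 22 settings.

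Cd22 encodes a sialic acid-binding inhibitory coreceptor, and its 2 probe sets were dim. 1419768_at read 6.84, 6.49 and 6.35 in cultured PCs, against 7.10 and 6.97 in ex vivo PCs. 1419769_at read 6.28, 6.53 and 6.73 in cultured PCs, against 6.30 and 7.67 in ex vivo PCs. The first probe set was lower in all cultured arrays, whereas in the second the ex vivo array of experiment 2 stood alone above the other 4. Each exceeded the 95th percentile of the background genes in 1 array. The log2 change in culture was -0.47 for both (SE 0.19 and 0.43, limma, adjusted p = 0.773 and 0.908). With the block it was -0.42 (95% interval -0.74 to -0.11, adjusted p = 0.168) and -0.60 (95% interval -1.21 to 0.00, adjusted p = 0.274). Without the ex vivo array of experiment 2, the log2 change of 1419769_at was 0.21 without the block and -0.02 with it. The fit without the block then sets cultured arrays of both experiments against an ex vivo array of experiment 1 alone. The interaction of culture and experiment for 1419769_at was -1.02 (limma, unadjusted p = 0.0285, adjusted p = 0.654).

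Cr2 encodes complement receptor CD21, which binds antigen coated with complement. Its probe set 1425289_a_at read 6.26, 6.81 and 6.79 in cultured PCs, against 6.09 and 6.80 in ex vivo PCs. The groups overlapped, both experiment 1 arrays were the low ones, and no array exceeded the 95th percentile of the background genes. The log2 change in culture was 0.18 (limma, adjusted p = 0.938), with an interval of -0.20 to 0.35 under the block.

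Fcer2a encodes CD23, the low-affinity IgE receptor of mature B cells. 1422122_at read 5.77, 5.76 and 5.77 in cultured PCs, against 5.95 and 6.07 in ex vivo PCs. 1451713_a_at read 5.06, 5.94 and 5.80 in cultured PCs, against 5.58 and 5.98 in ex vivo PCs. The cultured values of the first were all lower, by a small amount, and the second was under an intensity of 50 in both arrays of experiment 1. Neither exceeded the 95th percentile of the background in any array. With the block the log2 changes were -0.26 (limma, adjusted p = 0.284) and -0.29 (adjusted p = 0.355).

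Counted over the 12 probe sets, culture called 0 without the block, where 0.0459% of all 30477 tested probe sets were called by limma and 0.0164% were called higher. At an unadjusted p under 0.05 there was 1, against 6.59% of all tested, and the same 1, Cd72, was under 0.01, against 2.03%. The interaction of culture and experiment called 0 of all tested probe sets, and at an unadjusted p under 0.05 it held 1 of 12, against 6.59%. With the block, 1 of 12 was called, against 1.80% of all tested, or 0.561% counting lower calls and 1.24% counting higher calls. Cultured arrays were all below ex vivo arrays in 4 of 12 (Bank1, Cd72 and 1 probe set each of Cd22 and Fcer2a), against 10.6% of all tested probe sets, and all above in 0, against 9.42%. In 6 of 12 the cultured value was lower in all 3 pairs, against 24.9% of all tested. The median log2 change without the block was -0.20 over the members and -0.02 over all tested probe sets. The tissue-restricted background genes leaned the same way. With 1 probe set for each of the 19 tested, their median log2 change was -0.16, and 12 were lower in all 3 pairs. Over all 13578 genes, by the same rule, the median was -0.06 and 4032 were lower in all 3 pairs. The summed intensity of the background genes was 1738 to 1813 in cultured PCs and 2031 to 2062 in ex vivo PCs. The members below or near that background were Cd22, Cd72, Cr2 and Fcer2a, and the part of this shift in their values was not tested. With 3 cultured and 2 ex vivo arrays, an exact two-sided permutation test of any 1 gene cannot go below p = 0.1, and nothing says that the 2 cultured arrays of experiment 2 came from separate isolations, so the p-values measure the spread between these arrays.

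**Figure D2:**
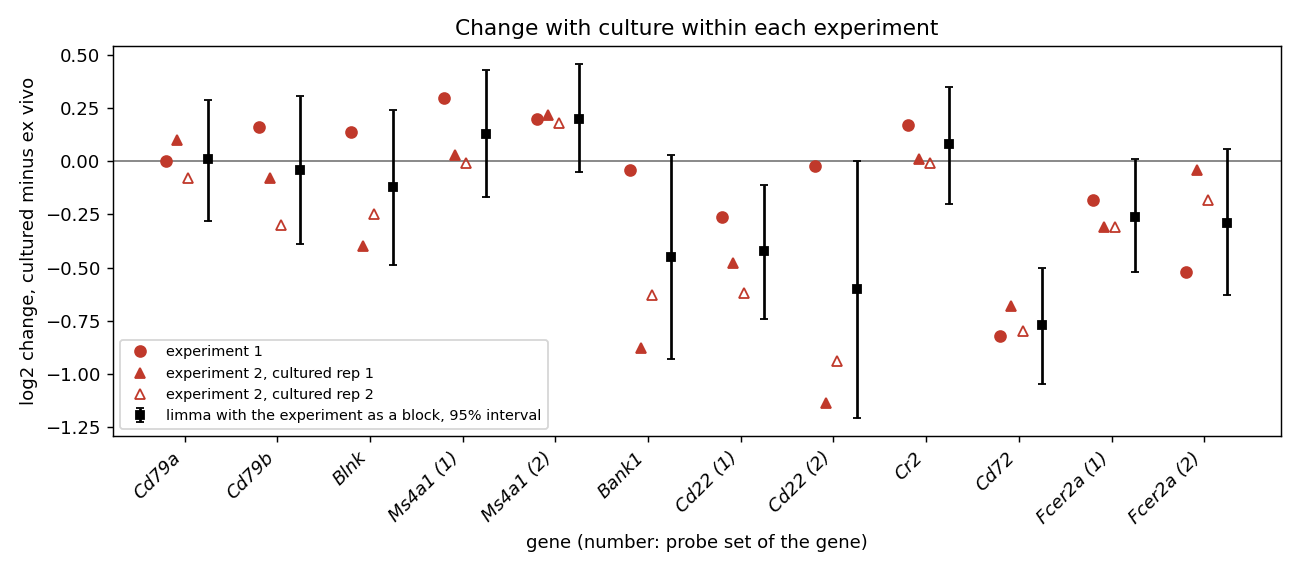
Log2 change, cultured minus ex vivo, of the 12 member probe sets: points give each cultured array minus the ex vivo array of its experiment, and squares with bars give the blocked limma value and its 95% interval. The interval of Cd72 lies at -1.05 to -0.50, that of the first Cd22 probe set at -0.74 to -0.11, and the intervals of Cd79a, Cd79b, Blnk and Ms4a1 all include 0.

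The experiments were compared with culture in the model, and 5 of the 12 member probe sets differed between them. Ms4a1 was higher in experiment 2 by 0.87 (SE 0.12, limma, adjusted p = 0.00772) and 1.03 (SE 0.10, adjusted p = 0.0041) on the log2 scale, which is 1.82-fold and 2.05-fold in intensity. The probe set of Cr2 (adjusted p = 0.0146) and 1451713_a_at of Fcer2a (adjusted p = 0.0258) were also called higher, but neither exceeded the 95th percentile of the background in any array, so these are differences between dim signals and no fold is given. The Fcer2a call was lost when the arrays of experiment 2 were averaged (adjusted p = 0.056). Blnk was lower, with a log2 difference of -0.57 (SE 0.15, adjusted p = 0.0404, 0.675-fold), a call that was lost with that averaging (adjusted p = 0.0809), with no filter on dim probe sets (adjusted p = 0.0602) and without any 1 of the 5 arrays. Cd79b stood at a log2 difference of -0.42 (SE 0.14, adjusted p = 0.0811). In all, 4 of 12 probe sets were called higher and 1 lower in experiment 2. Such calls were common, at 26.8% of all tested probe sets, 13.0% higher and 13.8% lower, and when each array was centred on its median the numbers were 3305 higher and 5419 lower, in place of 3954 and 4216. Without the cultured array of experiment 1, or without either ex vivo array, 0 of all 30477 probe sets were called, the members included, while the log2 difference of Ms4a1 1450912_at was 1.03 in each of these settings. The experiments may differ in mice, isolation and day, and these cannot be told apart.

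The direction of the experiment difference was not shared. The experiment 2 arrays were all above those of experiment 1 in 6 of 12 probe sets, against 24.1% of all tested, and all below in 2 of 12, against 25.2%. The 2 Cd22 probe sets pointed opposite ways, at 0.78 (adjusted p = 0.0648) for 1419769_at and -0.30 (adjusted p = 0.136) for 1419768_at. Of the member probe sets above an intensity of 50 throughout, 3 ranged over at least 1 on the log2 scale, and the genes with the most similar profiles were listed for them. The measure was the mean absolute difference of log2 values, each centred on its mean, over the 5 arrays. The nearest to Ms4a1 1423226_at were Rnf2 (0.019), Cldnd1 (0.027) and Mr1 (0.038). For 1450912_at they were Nabp1 (0.012), Cep68 (0.026) and Smg1 (0.029). For Cd22 1419769_at they were Bach2 (0.073), a transcriptional repressor of B cells, P2ry14 (0.075) and Yipf4 (0.096). The 2 Ms4a1 probe sets had no gene in common among the 3 listed for each, and genes further down were not compared.

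**Figure D3:**
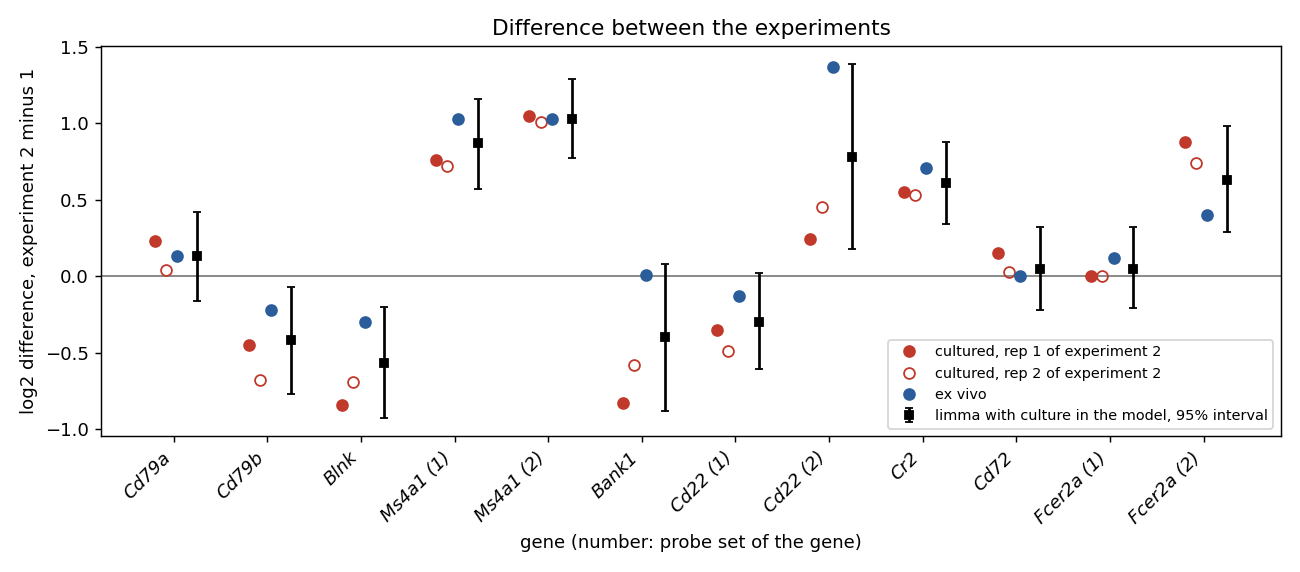
Log2 difference, experiment 2 minus experiment 1, of the 12 member probe sets: points give each cultured array of experiment 2 minus that of experiment 1 and the ex vivo pair, and squares with bars give the limma value with culture in the model and its 95% interval. Both Ms4a1 probe sets and Cr2 lie above 0 in cultured and in ex vivo PCs, Blnk and Cd79b below, and Cd72 near 0.

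The other genes of the receptor pathway were read from lists, with the brightest tested probe set for each gene. Of 24 genes that act directly downstream of the receptor, such as the kinases Syk and Btk and the phospholipase Plcg2, 21 were measured, and the others were not analysed here. All 21 were above the 95th percentile of the background in all 5 arrays. For this and the following lists, above the background means above that 95th percentile, not above the highest value, with any probe set of the gene. None was called in culture, without or with the block, and their median log2 change was -0.01 in both fits, where the median over all 13578 genes was -0.06 and -0.05. Syk read 11.56, 11.85 and 11.67 in cultured PCs, against 11.54 and 11.52 in ex vivo PCs. The 2 largest changes with the block were those of Vav2, a guanine nucleotide exchange factor, at 0.58 (SE 0.14, adjusted p = 0.115), and of Malt1, a paracaspase of the NF-κB branch, at 0.56 (SE 0.13, adjusted p = 0.103).

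Of 14 inhibitors of the receptor, 13 were tested and 10 were above the background in all arrays. With the block 0 were called higher and 1 lower, where 153 of all 13578 genes were called higher and 83 lower. The 1 inhibitor called was Ptpn6, which encodes SHP-1, the phosphatase that CD22 and CD72 recruit. It read 9.72, 10.46 and 10.35 in cultured PCs (1460188_at), against 10.37 and 11.21 in ex vivo PCs. The groups overlapped, but each cultured array was below the ex vivo array of its experiment. The log2 change with the block was -0.74 (SE 0.11, limma, adjusted p = 0.0455), and without it -0.61 (adjusted p = 0.854). The other Ptpn6 probe set changed by -0.63 (adjusted p = 0.0739). How the call held with arrays averaged or left out was not examined. Fcgr2b, the inhibitory Fc receptor, read 11.40, 11.70 and 11.55 in cultured PCs, against 11.42 and 11.56 in ex vivo PCs. The median log2 change of the inhibitors with the block was -0.08.

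Of 17 genes that mark mature B cells beside the members, 14 were measured and tested, and the others were not analysed here. None was called in culture in either fit, and 10 were above the background in all arrays while 3 never were. Pax5, the transcription factor that holds B cell identity, read 6.41, 6.84 and 6.49 in cultured PCs, against 6.74 and 7.00 in ex vivo PCs. These are values within the background, whereas Cd37, a tetraspanin, read 11.43, 11.93 and 11.89 in cultured PCs, against 11.41 and 11.89 in ex vivo PCs. The largest changes with the block were Tnfrsf13c, the BAFF receptor, at -0.68 (SE 0.11, adjusted p = 0.053), and Spib at -0.41 (adjusted p = 0.139). The summed intensity of the list was 15217 to 16654 in cultured PCs and 17406 to 17748 in ex vivo PCs.

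Of 15 B cell precursor genes, 12 were tested, 6 of the genes on the array never exceeded the background, and 2 were called lower with the block, against 0 without it. With the block, 83 of all 13578 genes were called lower. Il7r, the interleukin-7 receptor, was at 4.59 to 5.06 in cultured PCs, against 6.61 and 6.69 in ex vivo PCs, with an adjusted p of 0.0063 in the blocked fit of limma. All 5 Il7r values were below the 95th percentile of the background, and those of cultured PCs were below an intensity of 50, so no size of change is given. Dntt, the terminal transferase of developing lymphocytes, was at 5.83 to 6.00 in cultured PCs, against 7.12 and 7.03 in ex vivo PCs. Its log2 change was -1.14 (SE 0.12, adjusted p = 0.0171), while its other probe set changed by -0.23 (adjusted p = 0.406). Only the ex vivo array of experiment 1 exceeded the 95th percentile of the background (6.95 there), so this too is largely a difference between dim signals. The summed intensity of the tested precursor genes was 9524 to 10424 in cultured PCs and 10021 to 11377 in ex vivo PCs. Igll1 alone (1420177_at) made up 4475 to 5187 of it in cultured and 5187 to 5998 in ex vivo PCs. It was not called, with a log2 change of -0.18 with the block (limma, adjusted p = 0.439). The other Igll1 probe set, 1420176_x_at, averaged 6.32 over the 5 arrays, which is below the 95th percentile of the background. The bright signal was therefore seen in 1420177_at alone, and which transcripts gave it was not tested. In all, 5 genes of the list were above the background in all arrays, Igll1 among them through 1420177_at. The part of such cells in the Cd72 value was not tested.

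**Figure D4:**
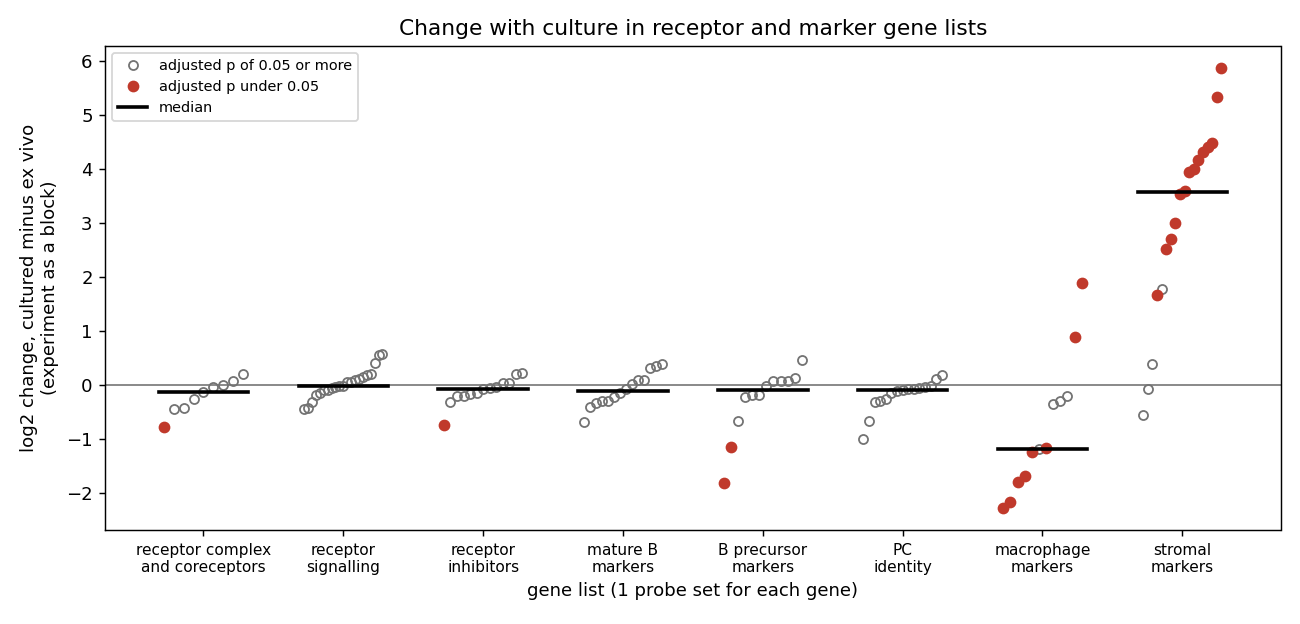
Log2 change, cultured minus ex vivo in the blocked model, of the genes of each list, 1 point per gene at its brightest tested probe set. The genes directly downstream of the receptor centre on -0.01, while the stromal list, at a median of 3.57, and the macrophage list, at -1.18, stand away from 0.

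Gene lists for PC identity and for other cell types were read too, and which cells carried each signal was not measured. All 15 genes of PC identity were above the background in all arrays, 0 were called, and 9 were lower and 1 higher in all 3 pairs. Over all 13578 genes, with 1 probe set each, 4032 were lower and 2569 higher in all 3 pairs. With the block, 153 of these 13578 were called higher and 83 lower. The largest changes with the block were those of Fkbp11, a chaperone of the secretory pathway, at -1.0 (SE 0.16, adjusted p = 0.0503), and Eaf2 at -0.66 (SE 0.11, adjusted p = 0.0541). The summed intensity of these genes was 85553 to 88093 in cultured PCs and 90835 to 94321 in ex vivo PCs. Of 18 tested stromal genes, 14 were called higher with the block, led by the matrix genes Col6a1, Col1a2, Lox, Fn1, Col3a1 and Col6a2, and 2 without it, and the summed intensity of the list was 7279 to 18781 in cultured PCs and 909 to 1326 in ex vivo PCs. Of 12 tested macrophage genes, 6 were called lower with the block (among them C1qb, C1qa, Fcna, Mrc1 and Cd5l) and 2 higher (Hmox1 and Cd68). Without it 1 was called lower and 0 higher. In all 3 pairs 9 were lower and 2 higher. The sums were 2231 to 3661 in cultured PCs and 2191 to 2618 in ex vivo PCs, and Cd68 and Hmox1 were a large part of them. Cd68 read 1062 to 1474 in cultured and 637 to 801 in ex vivo PCs, and Hmox1 593 to 1655 and 226 to 320. Follicular dendritic cells also carry CD21, and of the 5 tested genes of their list Madcam1 and Mfge8 were called higher with the block, by 1.23 (adjusted p = 0.0407) and 0.83 (adjusted p = 0.0361). Dendritic cell genes gave 0 calls. The largest changes with the block were those of Cox6a2 at -0.54 (adjusted p = 0.124) and Ly6d at 0.41 (adjusted p = 0.164). Their sums were 7016 to 8030 in cultured PCs and 6196 to 6437 in ex vivo PCs. Ly6d alone made up 5658 to 6583 of these in cultured and 4538 to 4620 in ex vivo PCs. Of the 9 tested genes, 4 were lower and 1 higher in all 3 pairs. The part of these cells in the members' values was not tested.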

How the data were processed

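RNA of BM PCs was hybridized to Affymetrix arrays. The authors applied RMA from the affy package, GCOS is named in the submitters' processing notes too, and no source used here gives versions. What was deposited are linear intensities (4.94 to 26947.18, array medians 87.05 to 94.14) and were converted here to log2. No depth exists for arrays, and 5 arrays limit the precision. The table holds 45101 probe sets, and its 64 controls were dropped. Of the rest, 34945 carry 1 gene symbol, 932 several and 9160 none, and only the first were named. The 30477 probe sets at an intensity of 50 or more in at least 2 arrays entered limma 3.58.1 under R 4.3.3 (Benjamini-Hochberg adjustment over all tested, adjusted p under 0.05, two-sided) for culture, for culture with the experiment as a replicate block, for experiment 2 minus 1 adjusted for culture, and for whether the culture change depends on the experiment. The labels give both groups the same experiment numbers, which pair the samples. Deviations from group means correlated at 0.749 in experiment 1 and at 0.558 and 0.719 in experiment 2. With 2 ex vivo arrays these deviations mirror each other, so the values are not separate checks of the pairing. limma was tested on simulated data.

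All member probe sets are named. Of each other list, up to 6 genes called in either fit were named, ordered by the size of the change, or the 2 largest where 0 were called. Syk, Fcgr2b, Pax5, Cd37, Cd68 and Igll1 were named after their values were seen. Members and lists were chosen with earlier results of these data known. Promoter sequences are from RefSeq (GRCm38.p6).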

Additional observations from a re-analysis of the deposited data

How the results depend on the processing

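With the experiment as a replicate block, 550 of 30477 probe sets were called for culture, against 14 without it. The count was 187 with the block and the arrays of experiment 2 averaged, 0 with averaging alone, 5 with no filter, 3 among the 10000 brightest probe sets, 22 with a mean-variance trend and 618 at an unadjusted p under 0.01. It ran from 0 to 257 when 1 array was left out, with 257 without the cultured array of experiment 1. Among the 12 member probe sets the count was 0, but 1, that of Cd72, with the replicate block, also with quantile normalization, median centring or the trend added, and 1 at the unadjusted threshold. It was 0 with any cultured array left out. With the block and without the cultured array of experiment 1, no probe set of the whole table was called, so that 0 is not particular to the members. Leaving out an ex vivo array left 1 in that group, and its counts are not read. The combinations of the block with another choice were chosen after seeing the data, except the averaging. For the experiment difference the 5 calls became 3 with averaging and 0 to 5 when 1 array was left out. It was 0, as over all probe sets, without the cultured array of experiment 1 or either ex vivo array and 2 without cultured replicate 2 of experiment 2. Blnk lost its call with averaging (adjusted p = 0.0809), with no filter (0.0602) and with any array left out. Cd79b passed among the 10000 brightest (0.0471) and with median centring (0.0483). The 9 members at the floor became 5 at an intensity of 100 or at the 95th percentile of the background. Changes of sign of values that were not called included Cd22 1419769_at, given with its values. Cd22, Cd72, Cr2 and Fcer2a were not among the 10000 brightest and have no value there. Dim signals near the background limit what can be said of these 4 genes.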
